A study of Homo sapiens with 6 samples.

Results

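The genes described here encode the semaphorin, ephrin and SLIT guidance ligands and their plexin, EPH and ROBO receptors. The families were picked with earlier results of these data known. Members were then taken by symbol alone: SEMA, SLIT or ROBO followed by a number, PLXNA to PLXND, EPHA, EPHB, EFNA and EFNB. This took 58 of the 23290 genes in the deposited table, made up of 20 semaphorins, 9 plexins, 14 EPH receptors, 8 ephrins, 3 SLIT and 4 ROBO genes. SLIT2-IT1, an intronic transcript within SLIT2, does not meet the rule and was left out. U87, an established cell line from a human glioblastoma, was grown in serum-containing medium and infected with retrovirus. The 3 control cultures, shCTR, received a scramble vector, and the 3 shC8 cultures received a vector that silences Caspase-8, the initiator protease of death receptor signalling. Both groups therefore carry a retroviral infection, and the hairpin sequences are not used here. The series text calls the replicates biological and does not say how cultures were kept apart, so a p-value here reflects only how far these 6 samples scatter.

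Guidance ligands and receptors were named for steering growing axons, and in tumours they are known for roles in cell migration, contact between cells and vessel growth. Semaphorins bind plexins, the secreted class through neuropilin co-receptors, and plexins act on small GTPases that remodel the actin skeleton. Ephrins stay on the cell surface and bind EPH receptor tyrosine kinases on a neighbouring cell, with signals in both directions, while secreted SLIT proteins bind ROBO receptors.

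The silenced gene was checked first. CASP8 stood at 15.1, 14.9 and 13.4 FPKM (fragments scaled to transcript length and to the mapped fragments of the library) in shCTR 1 to 3 and at 4.39, 4.46 and 4.44 FPKM in shC8 1 to 3. All shC8 libraries lay under all controls, with 30.6% of the mean level left. The change was -1.51 on the log2(FPKM + 1) scale (SE 0.0705, limma adjusted p = 0.000206). With 3 libraries against 3, the exact permutation test (two-sided) reached its lowest possible p of 0.1. Libraries summed to between 489055 and 516634 FPKM, and their relative depth, read from steps among low values, was 1 to 1.2. Of 10 glioblastoma and astrocyte markers, 4 reached a mean of 1 FPKM (VIM, CD44, EGFR and NES), of which NES was higher and CD44 lower in shC8. GFAP, SOX2 and OLIG2 had means at or below 0.29 FPKM over the 6 libraries, and AQP4 was listed at 0. Fibroblast and pericyte markers, 4 of 6 at 1 FPKM or more, summed to 26.2 to 33.0 FPKM in shCTR and 43.8 to 86.7 FPKM in shC8, with COL1A1 and PDGFRB higher in shC8. COL1A1 held most of this sum, at 15.2 to 20.7 FPKM in shCTR and 32.9 to 69.5 FPKM in shC8, while the groups overlapped for COL3A1, DCN, LUM and RGS5. Their part in the results below was not tested. No oligodendrocyte, endothelial or epithelial marker and 1 of 6 microglia and macrophage markers (CSF1R) reached a mean of 1 FPKM, and MOG, MAG, AIF1 and TYROBP were listed at 0. The 6 neuron markers, 3 of them at 1 FPKM or more, summed to 21.5 to 26.5 FPKM in shCTR and 21.5 to 24.4 FPKM in shC8. Of these, SNAP25 was lower in every shC8 library (14.0 to 15.6 FPKM against 16.1 to 18.8 FPKM in shCTR). SYT1 was higher in every shC8 library (2.79 to 2.97 FPKM against 1.95 to 2.25 FPKM in shCTR), and no neuron marker was called.

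U87 cells held 26 of the 58 genes at a mean of at least 1 FPKM, the minimum for a test, and the other 32 lay below it, with none listed at 0 in all libraries. EFNA4, an ephrin of the lipid-anchored A class, and SEMA4F, a transmembrane semaphorin, rose in shC8, no guidance gene fell, and 24 did not pass (limma on log2(FPKM + 1), Benjamini-Hochberg adjusted p under 0.05 over 11598 genes). Over all tested genes 12.1% were called, 7.14% as higher and 4.94% as lower, so 2 of 26 higher is near the background. At an unadjusted p under 0.05 there were 10 higher and 0 lower guidance genes, beside 2125 higher and 1324 lower of all 11598 genes. The 10 include EFNB1, which met the minimum through shC8 alone. The difference was positive for 24 of the 26 and negative for SEMA7A and EPHA4, where 57.9% of all tested genes were positive. The median difference of the 26 was 0.19 on the log2(FPKM + 1) scale, beside 0.04 over all tested genes, and over all 58 guidance genes without the minimum it was 0.0875 beside 0.0154. Under median-of-ratios scaling and under quantile normalization 21 of 26 were positive, beside 50.6% and 50.8% of all tested genes. EFNA4 and SEMA4F stayed the called genes under both, beside 649 and 715 of all 11598 genes called higher. In bulk RNA, fewer cells of a type and less RNA per cell cannot be told apart.

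The deposited columns carry replicate numbers, and libraries of the same number deviated together across genes. With that number as a block, 10 of 26 guidance genes were called higher and 0 lower, beside 16.1% higher and 10.6% lower over all genes. The 2 with a negative difference, SEMA7A and EPHA4, had an unadjusted p under 0.05 there and adjusted p of 0.0756 and 0.0615. The 10 were EFNA4 and SEMA4F with SEMA3A, SEMA3B, SEMA4B, SEMA5A, SEMA6D, EFNB1, EPHB4 and ROBO1. EFNB1 met the minimum for a test through shC8 alone (mean 1.37 FPKM, against 0.855 FPKM in shCTR). By role, 8 of 13 tested ligand genes and 2 of 13 tested receptor genes were among the 10, EFNB1 among the ligands. Without the block 2 of the 13 ligand genes and 0 of the 13 receptor genes were called higher. The difference by role was not tested. Numbers in the column names also fall into a lower range (shCTR 1, shCTR 3, shC8 1) and an upper range (shCTR 2, shC8 2, shC8 3) of unstated meaning. With the range as a term 5 guidance genes were called higher (EFNA4, SEMA4F, SEMA5A, EPHB4 and EPHB2) and 0 lower, beside 6.32% higher over all genes. These were 3 of 13 tested ligand genes and 2 of 13 tested receptor genes. Taken inside each range, the median of the 26 was 0.15 (lower) and 0.28 (upper), and it was 0.20, 0.31 and 0.20 in pairs 1, 2 and 3.

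**Figure D1:**
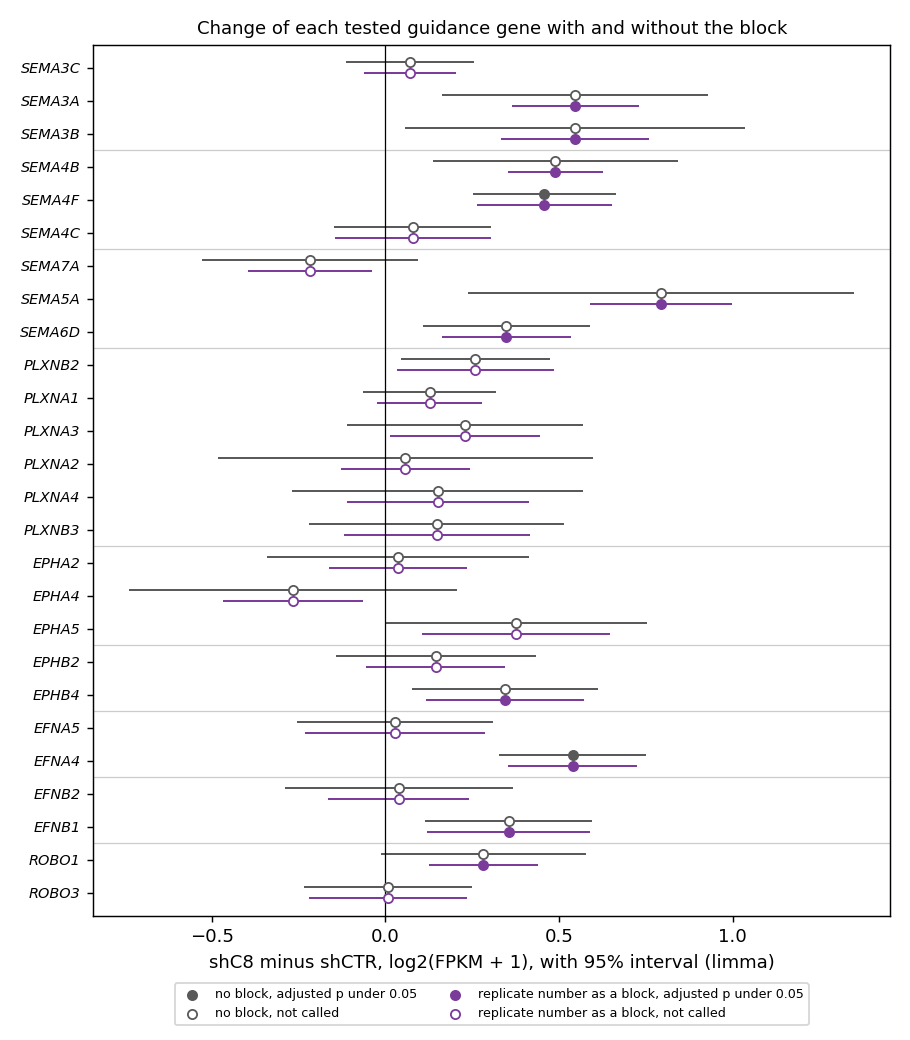
Difference between shC8 and shCTR on the log2(FPKM + 1) scale for the 26 tested guidance genes, with 95% intervals from limma, grouped by family. Grey marks the fit without a block and purple the fit with the replicate number as a block, and filled points are called. The 2 filled grey points are EFNA4 and SEMA4F, and 10 purple points are filled.

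EFNA4 was the ephrin gene called without the block and with the minimum of 1 FPKM. Its level was 1.74, 1.55 and 1.80 FPKM in shCTR 1 to 3, against 2.92, 2.67 and 3.15 FPKM in shC8 1 to 3. Every shC8 library lay above every control, and the spread within a group was small beside the gap. The shCTR mean was 1.69 ± 0.132 FPKM and the shC8 mean 2.91 ± 0.238 FPKM (SD, n = 3 for each), a ratio of 1.72, and the change was 0.54 on the log2(FPKM + 1) scale (SE 0.0906, limma adjusted p = 0.0125). Without shC8 3 the call was lost (limma adjusted p = 0.052), and it held in the other 5 fits without 1 library. EFNA4 (ENSG00000243364) lies on the plus strand at chr1:155063731-155069553 of GRCh38, and its exons overlap AL691442.1, a gene on the same strand that also overlaps EFNA3. Reads of these genes could be split or shared by the counting.

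SEMA4F was the semaphorin gene called without the block. It stood at 5.79, 6.83 and 6.43 FPKM in shCTR 1 to 3, against 9.56, 9.54 and 8.20 FPKM in shC8 1 to 3. The groups did not overlap, and shC8 3 was the shC8 library nearest to the controls. The shCTR mean was 6.35 ± 0.522 FPKM and the shC8 mean 9.10 ± 0.78 FPKM (SD, n = 3 for each), a ratio of 1.43, and the change was 0.46 (SE 0.0886, limma adjusted p = 0.0196). The call was lost without shCTR 1, shCTR 3 or shC8 2, with a limma adjusted p of up to 0.0743. SEMA4F (ENSG00000135622) lies on the plus strand at chr2:74654228-74683853 of GRCh38.

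The promoters of the 2 called genes and of SEMA5A, the tested guidance gene with the largest difference, are printed from RefSeq (GRCh38.p14), 300 bases around the start each, 5′ to 3′ on the gene's strand. EFNA4 is at chr1:155063490-155063789 on the plus strand, SEMA4F at chr2:74653997-74654296 on the plus strand and SEMA5A at chr5:9546026-9546325 on the minus strand. Capitals mark GC boxes (GGGCGG or its reverse complement) and CCAAT boxes (CCAAT or its reverse complement), and runs of capitals in SEMA5A are GC boxes that overlap or abut.
EFNA4: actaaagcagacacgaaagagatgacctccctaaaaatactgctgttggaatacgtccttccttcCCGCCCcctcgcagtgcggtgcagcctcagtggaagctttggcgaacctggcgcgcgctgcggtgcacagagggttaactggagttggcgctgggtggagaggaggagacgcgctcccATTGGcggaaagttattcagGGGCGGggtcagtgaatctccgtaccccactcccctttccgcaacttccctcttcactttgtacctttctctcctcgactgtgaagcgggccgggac
SEMA4F: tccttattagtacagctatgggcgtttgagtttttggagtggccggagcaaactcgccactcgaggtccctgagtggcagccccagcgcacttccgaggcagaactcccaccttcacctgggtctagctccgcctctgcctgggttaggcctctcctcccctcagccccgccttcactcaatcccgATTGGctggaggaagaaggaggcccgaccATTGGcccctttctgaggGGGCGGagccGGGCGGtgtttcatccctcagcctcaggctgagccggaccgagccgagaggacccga
SEMA5A: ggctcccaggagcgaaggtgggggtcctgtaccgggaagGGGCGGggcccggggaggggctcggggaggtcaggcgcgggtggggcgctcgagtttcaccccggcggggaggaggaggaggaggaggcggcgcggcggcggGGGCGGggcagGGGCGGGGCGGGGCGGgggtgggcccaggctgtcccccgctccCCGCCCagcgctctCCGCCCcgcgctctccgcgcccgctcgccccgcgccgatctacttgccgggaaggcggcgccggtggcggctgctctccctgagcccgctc
EFNA4 held 2 GC boxes and 1 CCAAT box, SEMA4F held 2 of each, and SEMA5A held 7 GC boxes and no CCAAT box. GC content was 58.3%, 63% and 81% in EFNA4, SEMA4F and SEMA5A. Promoters were found for 53 of the 58 guidance genes, 84 promoters in all, since some genes have several. Some of these overlap, such as those of EPHB2, which start at bases 22710588 and 22710589 of chromosome 1. The shares below therefore count some stretches more than once, and no share per gene was taken. A GC box was in 62 of the 84 (73.8%), against 45% of the 35116 promoters in the table, and a CCAAT box in 26 (31.0%) against 34.6%. Median GC content was 65.2% against 58.7%, and its part in the GC box share was not tested. The AP-1 motif TGANTCA was in 1 of 84 (1.19%, PLXNC1) against 7.71%, and the E-box CACGTG was in 4 (4.76%) against 7.26%. The NF-kB motif was in 6 (7.14%) against 5.91%, namely SEMA4A, SEMA3F, SEMA3B, EPHA3, EPHB1 and EFNA2. Both strands were searched, and a match describes letters and not a bound site.

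Of the secreted class 3 semaphorins, SEMA3C made up 85.0% to 92.7% of the summed FPKM of the class in a library. SEMA3C was at 56.7, 57.4 and 52.0 FPKM in shCTR, against 55.5, 64.1 and 55.3 FPKM in shC8, with overlapping groups and a difference of 0.07 (SE 0.0793, limma adjusted p = 0.587). SEMA3A, the class's best known repellent of axons, was at 2.69, 4.19 and 4.04 FPKM in shCTR, against 4.72, 6.86 and 5.70 FPKM in shC8. Libraries numbered 1 were the lowest of both groups, and the groups did not overlap. SEMA3A differed by 0.55 (SE 0.164, limma adjusted p = 0.0706), and with the block its adjusted p was 0.00608. SEMA3B, a secreted semaphorin often described as a growth suppressor, was at 1.03, 2.00 and 1.03 FPKM in shCTR, against 1.79, 3.32 and 2.20 FPKM in shC8. Its groups overlapped through shCTR 2, and shC8 2 was the highest of its own group. SEMA3B differed by 0.55 (SE 0.21, limma adjusted p = 0.132), and its 3 pair differences were 0.46, 0.52 and 0.66, with an adjusted p of 0.00925 with the block. The other 4 genes of the class (SEMA3D, SEMA3E, SEMA3F and SEMA3G) were under 1 FPKM in every library.

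In class 4, whose members span the membrane, SEMA4B made up 38.0% to 48.0% of the class sum in a library. The summed FPKM of the 6 genes was 18.1, 22 and 17.5 in shCTR and 25.6, 28.1 and 23.8 in shC8, without overlap. Of its genes, SEMA4B and SEMA4F alone had separate groups. The class A ephrin sum was 7.43, 7.84 and 6.80 FPKM in shCTR and 7.88, 10.1 and 9.63 FPKM in shC8, also without overlap. Sums of the other families overlapped, and no sum was tested. SEMA4B was at 7.10, 9.61 and 6.64 FPKM in shCTR, against 10.2, 13.5 and 10.2 FPKM in shC8. Both groups had their highest value in library 2, and the groups did not overlap. SEMA4B differed by 0.49 (SE 0.151, limma adjusted p = 0.0762), with pair differences of 0.47, 0.45 and 0.55 and an adjusted p of 0.00389 with the block. Without shCTR 2 it was also called (limma adjusted p = 0.0478). SEMA4C, a known ligand of PLXNB2, was at 3.74 to 4.40 FPKM in shCTR and 3.89 to 4.87 FPKM in shC8, a difference of 0.08 (limma adjusted p = 0.623).

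Among classes 5 to 7, the lipid-anchored SEMA7A was the most abundant, with 82.4% to 92.7% of their summed FPKM. SEMA7A was at 47.0, 67.5 and 62.9 FPKM in shCTR, against 46.3, 53.4 and 50.9 FPKM in shC8. Library 1 was the lowest of each group, and shCTR 1 lay inside the shC8 range. SEMA7A differed by -0.22 (SE 0.134, limma adjusted p = 0.32), and it was 1 of 2 tested guidance genes with a negative value. SEMA5A, a transmembrane semaphorin with thrombospondin repeats, was at 1.92, 3.63 and 2.27 FPKM in shCTR, against 3.55, 7.10 and 5.26 FPKM in shC8. The highest control, shCTR 2, lay just above the lowest shC8 library, shC8 1, and each shC8 library was above the control of its number. SEMA5A differed by 0.79 (SE 0.239, limma adjusted p = 0.0712), and the call was made with the block (adjusted p = 0.00302), with the range term (adjusted p = 0.0308) and without shC8 1 (adjusted p = 0.0376). SEMA6D, a known ligand of PLXNA1, was at 1.67, 1.99 and 2.06 FPKM in shCTR, against 2.35, 2.81 and 2.94 FPKM in shC8. The groups did not overlap, and the pair differences were close together at 0.33, 0.35 and 0.37. SEMA6D differed by 0.35 (SE 0.103, limma adjusted p = 0.0685), with an adjusted p of 0.0228 with the block. Exons of SEMA5A overlap AC021088.1 on the other strand, and it is not stated whether the counting used strand.

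**Figure D2:**
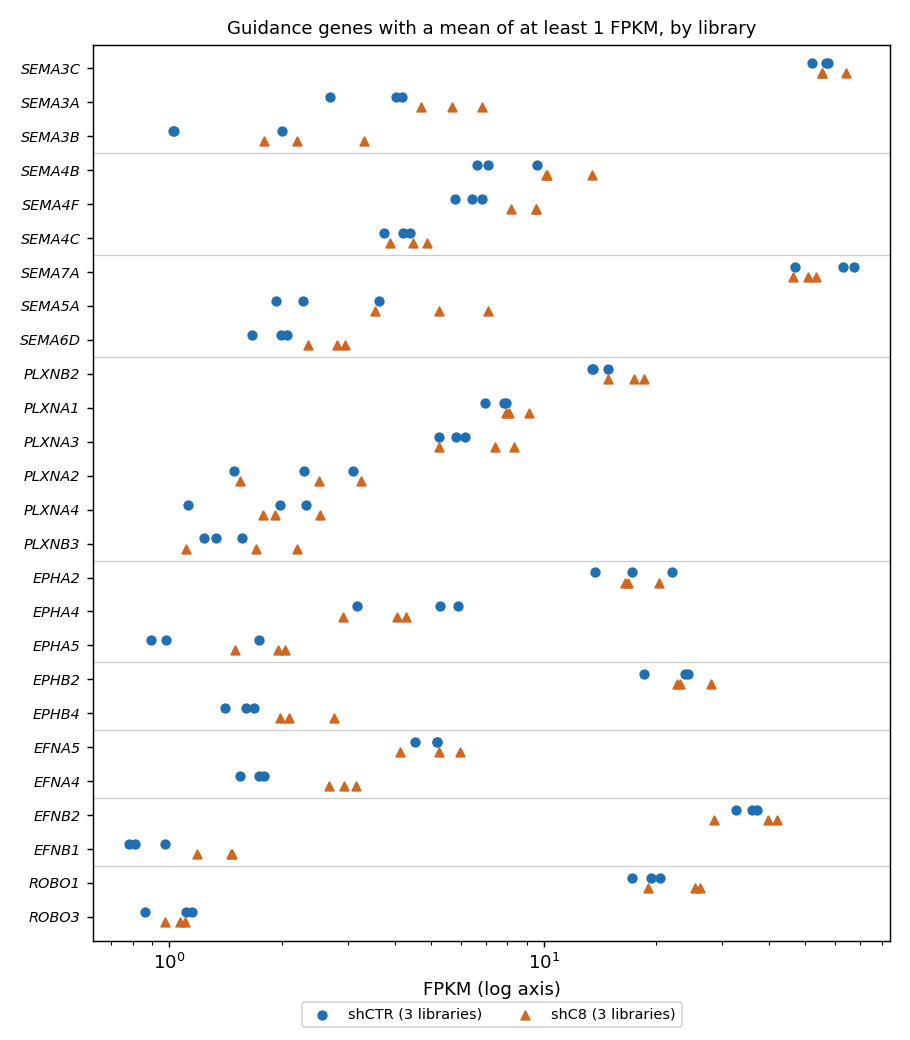
FPKM on a log axis of the 26 tested guidance genes, by family, with 1 point for each of 3 shCTR (blue circles) and 3 shC8 (orange triangles) libraries. EFNA4 and SEMA4F show separate groups, while SEMA3C, SEMA7A, EPHA2, EFNA5 and EFNB2 overlap.

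Of 6 tested plexins, the semaphorin receptors, 0 passed, with 1 higher (PLXNB2) and 0 lower at an unadjusted p under 0.05. PLXNB2, the most abundant with 38.8% to 46.9% of the plexin sum, was at 14.8, 13.4 and 13.5 FPKM in shCTR, against 14.8, 18.5 and 17.4 FPKM in shC8. The lowest shC8 value, from shC8 1, lay within the controls, and shC8 2 and 3 were above all of them. PLXNB2 differed by 0.26 (SE 0.0917, limma adjusted p = 0.109), and without shC8 1 it was called (adjusted p = 0.0375). PLXNA1, which pairs with neuropilins as a receptor of secreted semaphorins, was at 6.98, 7.91 and 7.85 FPKM in shCTR, against 7.94, 9.14 and 8.06 FPKM in shC8. The gap between the groups was narrow, and the difference was 0.13 (SE 0.0821, limma adjusted p = 0.339). PLXNA3 was at 5.24, 6.15 and 5.83 FPKM in shCTR, against 5.27, 8.31 and 7.40 FPKM in shC8, again with shC8 1 inside the control range, and without it PLXNA3 was called (limma adjusted p = 0.0475).

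PLXNA2, a receptor of the same type, varied more by library number than by group. It was at 1.49, 2.29 and 3.10 FPKM in shCTR 1 to 3, against 1.54, 2.51 and 3.24 FPKM in shC8 1 to 3. Both groups held the same order, and the pair differences were 0.03, 0.09 and 0.05. Over the groups PLXNA2 differed by 0.06 (95% interval -0.48 to 0.60, limma adjusted p = 0.898), a value that was negative under quantile normalization. PLXNA4 and PLXNB3 were at 1.11 to 2.53 FPKM with overlapping groups. PLXNC1, the receptor known for SEMA7A, was at 0.134 to 0.243 FPKM, so U87 cells held this ligand's RNA with little of its plexin's, and PLXNB1 and PLXND1 were below 1 FPKM in every library.

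The co-receptors of semaphorins and plexins came from a list of 8 genes, of which 5 were tested, 1 rose, 0 fell and 4 did not pass (2 were higher and 1 lower at an unadjusted p under 0.05). The list's median difference was 0.08. The gene that rose, PTK7, which encodes a kinase-dead receptor that also acts in Wnt signalling, was at 1.81, 2.03 and 1.93 FPKM in shCTR, against 4.23, 4.40 and 3.83 FPKM in shC8, with no overlap. PTK7 rose by 0.82 (limma adjusted p = 0.00266), and the call held in each of 6 fits without 1 library. The neuropilin genes NRP1 and NRP2 averaged 124 and 35.2 FPKM in shCTR and 113 and 43.3 FPKM in shC8. MET, which partners class B plexins, averaged 88.2 and 93.2 FPKM, and neither MET nor the neuropilin genes were called. All shC8 libraries lay below all controls for NRP1 (109 to 115 FPKM against 118 to 132 FPKM), while NRP2 and MET overlapped. KDR, a vascular growth factor receptor gene, was at 1.37 to 1.96 FPKM in shCTR and 0.758 to 1.29 FPKM in shC8, and its shC8 mean of 0.986 FPKM was under the minimum, which it met through shCTR. KDR was not called over all libraries (limma adjusted p = 0.0853), and was called lower with the block and without shC8 1 (adjusted p = 0.0496).

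Ephrin RNA was held mainly by 1 gene of each class. EFNB2, a transmembrane ephrin known from arterial vessels, made up 95.1% to 97.9% of the class B sum and was at 36.1, 37.2 and 32.6 FPKM in shCTR, against 41.9, 39.8 and 28.5 FPKM in shC8. The shC8 libraries held both the highest values and the lowest one, and the difference was 0.04 (SE 0.141, limma adjusted p = 0.889). EFNA5, with 52.5% to 69.8% of the class A sum, was at 5.19, 5.19 and 4.53 FPKM in shCTR, against 4.14, 5.98 and 5.25 FPKM in shC8. These groups overlapped and differed by 0.03 (SE 0.121, limma adjusted p = 0.906), a value that was negative under both other scalings. EFNB1, the second class B ephrin, was at 0.782, 0.812 and 0.971 FPKM in shCTR, against 1.47, 1.19 and 1.46 FPKM in shC8. It was above 1 FPKM in shC8 alone, so it met the minimum through that group. EFNB1 differed by 0.35 (SE 0.103, limma adjusted p = 0.0655), with an adjusted p of 0.0424 with the block.

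EPH receptors showed no call among 5 tested genes, with 1 higher and 0 lower at an unadjusted p under 0.05. EPHA2, the kinase that made up 67.9% to 74.5% of the class A sum, was at 13.7, 17.2 and 22 FPKM in shCTR, against 16.5, 16.7 and 20.3 FPKM in shC8. The controls spanned the whole shC8 range, and the difference was 0.03 (SE 0.162, limma adjusted p = 0.91). EPHA4, a receptor of both ephrin classes, was at 3.17, 5.92 and 5.28 FPKM in shCTR, against 2.91, 4.28 and 4.05 FPKM in shC8. Library 1 was the lowest of each group, the groups overlapped, and each shC8 library was below the control of its number, with a difference of -0.27 (SE 0.202, limma adjusted p = 0.415). EPHA5 was at 0.891 to 1.73 FPKM in shCTR and 1.49 to 2.04 FPKM in shC8, with overlap.

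EPHB2, with 90.0% to 92.8% of the class B receptor sum, was at 24.2, 18.5 and 23.9 FPKM in shCTR, against 27.9, 23.2 and 22.7 FPKM in shC8. Its groups overlapped and differed by 0.14 (SE 0.124, limma adjusted p = 0.471), and with the range term it was called (adjusted p = 0.0458). EPHB4, the receptor paired with EFNB2 in the venous and arterial vessel boundary, was at 1.68, 1.41 and 1.61 FPKM in shCTR, against 2.75, 2.08 and 1.98 FPKM in shC8. Every shC8 library was above every control, with shC8 1 the highest. EPHB4 differed by 0.34 (SE 0.115, limma adjusted p = 0.094), with adjusted p of 0.0424 with the block and 0.0412 with the range term. Its exons overlap SLC12A9 on the other strand. Exons of EFNB2, EPHA4, EPHA5, EPHB2 and PLXNA3 also overlap genes on the other strand, and those of SEMA3B and PLXNB3 overlap MIR6872 and SRPK3 on the same strand, so their reads could be mixed.

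**Figure D3:**
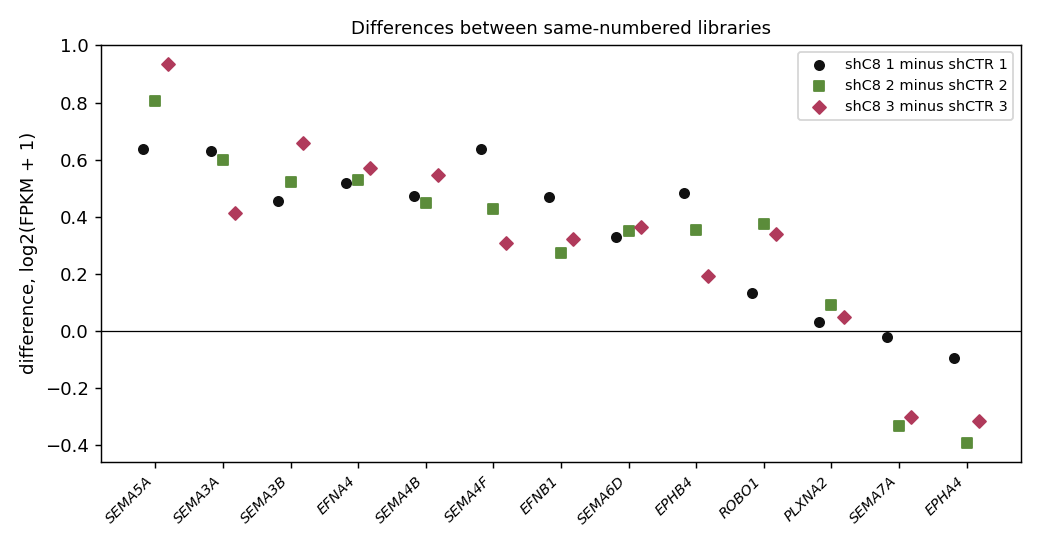
Difference on the log2(FPKM + 1) scale within each pair of same-numbered libraries, for the 10 genes called with the block and for PLXNA2, SEMA7A and EPHA4. For the 10 genes each of the 3 pairs lies above 0, PLXNA2 lies near 0, and SEMA7A and EPHA4 lie below 0 in each pair. The 10 were chosen by the block fit, which uses these same pair differences, so their signs are no separate support.

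SLIT genes were low and ROBO1 was not. SLIT2 was at 0.849, 0.778 and 0.414 FPKM in shCTR, against 0.588, 0.7 and 0.480 FPKM in shC8. The 3 SLIT genes summed to 0.78 to 1.55 FPKM in shCTR and 1.12 to 1.62 FPKM in shC8, with overlap, and none met the minimum. ROBO1, the receptor that made up 93.2% to 96.2% of the ROBO sum, was at 17.2, 19.4 and 20.4 FPKM in shCTR, against 19.0, 25.4 and 26.1 FPKM in shC8. The lowest shC8 value, from shC8 1, lay inside the control range. ROBO1 differed by 0.28 (SE 0.127, limma adjusted p = 0.187), and it was called with the block (adjusted p = 0.0265) and without shC8 1 (adjusted p = 0.0318). Its difference was 0.02 in the lower and 0.39 in the upper range of column numbers. In the lower range shC8 1 was the sole shC8 library, and in the upper range shCTR 2 was the sole control. ROBO3, known for midline crossing of axons, was at 0.861 to 1.15 FPKM over all libraries, and ROBO2 and ROBO4 were at or below 0.105 FPKM.

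Groups that do not overlap were also counted, with no call attached. Of the 26 tested guidance genes 8 had all shC8 libraries above all controls and 0 had them below, beside 21.7% and 13.1% of all tested genes. These were EFNA4, EFNB1, EPHB4, PLXNA1, SEMA3A, SEMA4B, SEMA4F and SEMA6D, of which EFNB1 met the minimum through shC8 alone. Among the 32 genes under the minimum, 9 were above and 0 below, beside 10.7% and 4.06% of the 7126 genes of that kind listed above 0 in a library. The 9 were EFNA1, EPHA3, EPHB3, PLXNB1, PLXND1, SEMA3D, SEMA5B, SEMA6B and SEMA6C, and they are named after their values were seen. The others under the minimum had overlapping groups. EFNA3 reached the highest single value among these, 1.20 FPKM in shC8 2, while EFNA2, EPHA6 and ROBO2 were listed at 0 in several libraries.

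EPHA3, a class A receptor known from glioblastoma, was at 0.243, 0.571 and 0.573 FPKM in shCTR, against 0.887, 1.77 and 1.35 FPKM in shC8, a mean of 0.90 FPKM that was just under the minimum. Library 1 was the lowest of each group. EFNA1, an ephrin known to bind EPHA2, was at 0.0848, 0.0563 and 0.0925 FPKM in shCTR, against 0.263, 0.252 and 0.306 FPKM in shC8. EPHB3 was at 0.0812, 0.0728 and 0.109 FPKM in shCTR, against 0.233, 0.249 and 0.372 FPKM in shC8. In both genes every shC8 library stood above every control, at levels far below 1 FPKM. With no minimum on FPKM, 4 guidance genes were called higher (EFNA4, SEMA4F, EFNA1 with a limma adjusted p of 0.0127 and EPHB3 with 0.0429) and 0 lower, beside 3.08% higher over all genes. EPHA3 had an adjusted p of 0.0793 there. SEMA5B was listed at 0 in shCTR 1 and 2, with 0.00655 FPKM in shCTR 3, and was at 0.0384, 0.128 and 0.059 FPKM in shC8.

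**Figure D4:**
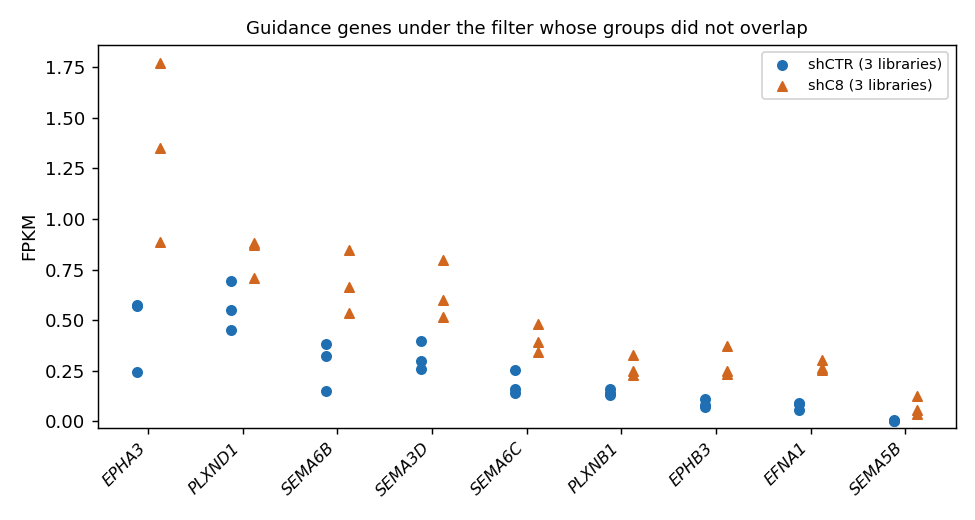
FPKM on a linear axis of the 9 guidance genes under the minimum whose groups did not overlap, with 1 point per library, blue circles for shCTR and orange triangles for shC8. EPHA3 is the highest of the 9, and SEMA5B is at or near 0 in shCTR.

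Partners and effectors of guidance signalling came from 6 lists of 80 genes, the co-receptors included, of which 59 were tested. Among these 4 rose (PTK7, GPC1, DPYSL3 and MYL9), 2 fell (FARP1 and VAV2) and 53 did not pass, near the shares of 7.14% and 4.94% over all genes. With the block 17 were called higher and 7 lower, beside 16.1% and 10.6% over all genes. Of the 59, 17 had all shC8 libraries above all controls and 10 had them below, beside 21.7% and 13.1% of all tested genes. The median difference of the 59 was 0.10. Of 7 other guidance cues and receptors tested out of 18, 1 rose, 0 fell and 6 did not pass, with a median of 0.18. The gene that rose was GPC1, which encodes a heparan sulfate proteoglycan that binds SLIT. GPC1 was at 13.2, 13.7 and 16.7 FPKM in shCTR, against 22.6, 24.5 and 24.7 FPKM in shC8, with no overlap, a change of 0.69 (SE 0.0936, limma adjusted p = 0.00633), and the call held in each of 6 fits without 1 library. At an unadjusted p under 0.05 that list had 1 gene higher and 0 lower.

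Of 13 tested semaphorin and plexin effectors 1 rose, 1 fell and 11 did not pass, with a median of 0.19. DPYSL3, a collapsin response mediator, was at 36.8, 41.2 and 45.3 FPKM in shCTR, against 48.4, 54.0 and 55.8 FPKM in shC8. The groups did not overlap, and DPYSL3 rose by 0.36 (limma adjusted p = 0.0478). FARP1, which acts downstream of plexins, was at 7.45, 7.17 and 7.75 FPKM in shCTR, against 6.14, 5.53 and 5.63 FPKM in shC8. All shC8 libraries lay below the controls, and FARP1 fell by 0.32 (limma adjusted p = 0.03). Of 15 tested ephrin and EPH effectors 0 rose, VAV2 fell and 14 did not pass (3 were higher and 2 lower at an unadjusted p under 0.05), with a median of 0.02. VAV2, an exchange factor recruited by EPH receptors, was at 8.29, 8.39 and 9.13 FPKM in shCTR, against 6.80, 6.98 and 7.02 FPKM in shC8, and fell by 0.27 (limma adjusted p = 0.0398).

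Of 7 tested SLIT and ROBO effectors none was called (2 higher and 0 lower at an unadjusted p under 0.05), with a median of 0.14. Of 12 shared actin regulators 1 rose and 11 did not pass (0 fell, and 3 were higher and 2 lower at an unadjusted p under 0.05), with a median of 0.03. MYL9, a regulatory light chain of myosin, was at 28.3, 29 and 35.5 FPKM in shCTR, against 63.8, 61.1 and 66.8 FPKM in shC8. The groups were far apart, and MYL9 rose by 1.03 (limma adjusted p = 0.00177), a call that held in each of 6 fits without 1 library. The call of DPYSL3 was lost without shCTR 1, shCTR 2, shC8 2 or shC8 3 (limma adjusted p up to 0.151), that of FARP1 without any library except shC8 1 (up to 0.103) and that of VAV2 without any 1 library (up to 0.111). DPYSL3 was also not called with the range term (limma adjusted p = 0.0732), with no minimum (0.0852) or under either other scaling. With no minimum FARP1 and VAV2 were not called (limma adjusted p = 0.0584 and 0.0675), nor was VAV2 with the range term (0.064). Under median-of-ratios scaling 3 of the 59 were called higher and 4 lower, beside 649 higher and 757 lower of all 11598 genes. Under quantile normalization 4 were higher and 5 lower, beside 715 and 731 of all genes.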

How the data were processed

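RNA of 6 U87 cultures was measured, 3 shCTR and 3 shC8. Per the labels' protocols, DNase-treated total RNA went through ribosomal depletion and a stranded library kit. The authors deposited 1 FPKM value per gene symbol and library. The submitters' processing notes name TopHat, Cufflinks, Cuffdiff and hg38. The annotation, strand use and scaling of columns are not given in the sources used here. Values in FPKM are relative to gene length and library total, so abundant genes that change shift all others, and a value of 0 can be a failed estimate. Absolute depth is unknown, so no counting interval is given, and the lowest values put the depth of the other libraries at 1.09 to 1.2 times that of shCTR 1.

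The 11598 genes averaging 1 FPKM or more were tested on log2(FPKM + 1) with limma 3.58.1 in R 4.3.3, two-sided, with moderation along the mean, and a call needed a Benjamini-Hochberg adjusted p under 0.05. Differences on this scale understate changes of low genes. Tables and figures used Python 3.11.15. The fit was checked on simulated data, with noise drawn independently for each gene and library and no change planted in low genes such as EFNA4. That check therefore does not cover such genes or the shared deviations of same-numbered libraries. Gene positions and overlaps came from GENCODE 29 (GRCh38, the assembly called hg38), and promoters from RefSeq. All 80 partner and effector genes were found in the table, DRAXIN under its older symbol C1orf187.

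The guidance genes and lists were chosen with earlier results of these data known. Named were called genes, the 2 tested genes of highest mean in each family, tested genes with a difference of at least 0.5, genes called with the block only, called partner genes and CASP8. Other genes, and the GC and CCAAT boxes, were chosen after their values were seen. Both groups carry replicate numbers 1 to 3. Across genes, same-numbered libraries deviated from their group means together (correlations of 0.397, 0.266 and 0.291), so the numbers were taken as pairs on the data alone, since no label states it. Alternatives were a pseudocount of 0.1, no minimum, a minimum of 5 FPKM, the replicate block, median-of-ratios scaling, quantile normalization, the column number range as a term, no trend, a minimum difference of 0.5 and fits without each single library. Dropping the minimum together with a pseudocount of 0.1 was added after seeing the data.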

Additional observations from a re-analysis of the deposited data

How the results depend on the processing

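CASP8 kept its call under each alternative run. The 2 guidance genes called higher became 4 with no minimum on FPKM (also with a pseudocount of 0.1), 1 with a minimum mean of 5 FPKM, 1 with a minimum difference of 0.5, 10 with the replicate block, 5 with a term for the column number range and 1 to 7 when 1 library was left out: 1 without shCTR 1, shCTR 3, shC8 2 or shC8 3, and 7 without shC8 1 (EFNA4, SEMA4F, SEMA5A, SEMA6D, PLXNB2, PLXNA3 and ROBO1). Without shCTR 2, SEMA4B was called higher beside EFNA4 and SEMA4F. Over all 11598 genes, 1346 were called without shC8 1, 51.9% of them higher, and 644 without shCTR 2, 57.0% of them higher. Without shCTR 1, shCTR 3, shC8 2 or shC8 3 it was 477 to 840, with 50.2% to 56.5% higher. With all libraries it was 1401, with 59.1% higher. The count of lower guidance genes was 0 under each alternative. Their median of 0.19 was 0.0875 with no minimum, then over all 58, and 0.183 to 0.282 with 1 library left out, the highest without shC8 1. For partner genes the 4 higher became 17 with the replicate block. The 2 lower became 7 with the block, 5 under quantile normalization, 4 under median-of-ratios scaling, 1 with the range term, 0 with no minimum or a minimum difference of 0.5, and 0 to 3 with 1 library left out. Over all genes 1401 calls became 3086 with the block and 477 to 1346 with 1 library left out, and the share of higher calls went from 59.1% to 46.2% under median-of-ratios scaling and 49.4% under quantile normalization. Where the construction of an alternative does not show it, the cause was not tested.

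Differences near 0 changed sign. Under quantile normalization EFNA5 was at -0.0363, PLXNA2 at -0.0232 and ROBO3 at -0.0704. Under median-of-ratios scaling EFNA5 was at -0.00433, EPHA2 at -0.00161 and ROBO3 at -0.0122. With the range term EFNA5 was at -0.0463 and PLXNA2 at -0.0501. With 1 library left out, EFNA5 ran from -0.0730 to 0.148, EFNB2 from -0.0639 to 0.207, EPHA2 from -0.124 to 0.200, PLXNA2 from -0.13 to 0.258, PLXNA4 from -0.0377 to 0.284 and ROBO3 from -0.0571 to 0.048. The block changed no other call of a guidance gene than those given. Depth is unknown, so the precision of values under 1 FPKM could not be given.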
